A study of Mus musculus with 12 samples.

Results

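Matrix metalloproteases (MMPs) and the tissue inhibitors that block them (TIMPs) were followed through fat cell differentiation in a brown and a white mouse cell line. The 10 genes Mmp2, Mmp3, Mmp9, Mmp11, Mmp13, Mmp14, Timp1, Timp2, Timp3 and Timp4 were taken by symbol from the annotation of the array, out of 18193 genes named by a probe set with a single symbol, and 23 probe sets carried them. RNA came from brown adipocytes at day 8, brown preadipocytes at day 0, white 3T3-L1 adipocytes at day 10 and white 3T3-L1 preadipocytes at day 0, and each of these 4 groups was hybridised to 3 arrays. 3T3-L1 is an established embryonic fibroblast line committed to the white fat lineage, and the brown line is named in the labels only as a brown fat cell line. Both were induced 2 days after confluence, for 3 days, with IBMX (0.5 mM, which raises cyclic AMP), dexamethasone (1 µM, a glucocorticoid) and insulin. The insulin dose was 20 nM for brown and 1 µg/mL for white cells. The brown mix also held indomethacin (125 µM) and the thyroid hormone T3 (1 nM). The brown cells were kept in insulin and T3 to day 8, and the white cells had insulin for 2 more days and then growth medium. Between the adipocytes, line, induction mix and harvest day thus changed together. Every comparison between lines that includes adipocytes is one between these combinations. Between the preadipocytes, both taken at day 0 before induction, neither mix nor harvest day differed. No label says whether the 3 arrays of a group came from separate cultures, so p-values measure only the spread between these arrays.

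MMPs are zinc proteases that cut collagen and other matrix proteins, and most are secreted as inactive precursors. The gelatinases Mmp2 and Mmp9 cut denatured collagen and basement membrane collagen, Mmp13 is the main collagenase of rodents, Mmp3 (stromelysin 1) has a broad range of substrates, and Mmp11 (stromelysin 3) leaves its producer cell already active. Mmp14 is anchored in the cell membrane and cuts fibrillar collagen. With Timp2 as a bridge, Mmp14 also captures and activates the Mmp2 precursor at the cell surface. TIMPs bind active MMPs one to one. Timp3 stays bound to the matrix and also blocks ADAM and ADAMTS proteases, and Timp4 has a narrower tissue range than the other TIMPs. A fat cell that rounds up and fills with lipid remodels the matrix around it, and loss of Mmp14 in mice impairs the growth of white fat.

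Values are signal intensities in arbitrary units, scaled by the submitters so that every array had the same trimmed mean. The 40th percentile of an array, between 32.9 and 41.2, served as the level under which a signal is called dim. All 10 genes passed the filter of at least 3 arrays above that level. Mmp13 passed with 4 arrays, 3 of them white adipocytes, and Mmp3, Timp3 and Timp4 passed with 7 each and Mmp9 with 8, so for these the arrays that admitted them are those where they were high. Changes are differences of log2(signal + 16) from a limma fit of all 12 arrays and 13752 genes, adipocytes minus preadipocytes or brown minus white, with Benjamini-Hochberg adjusted p-values, and changes of dim genes are understated on that scale. In bulk RNA, fewer cells that make a transcript and less transcript per cell cannot be told apart. Pearson correlations of log2 signal were 0.978 to 0.982 within groups and 0.885 to 0.935 between groups. The fat cell marker Adipoq stood at 26332 ± 497 in brown adipocytes, 18695 ± 2319 in brown preadipocytes, 32117 ± 2551 in white adipocytes and 31.9 ± 16.4 in white preadipocytes (mean ± SD, n = 3), so the brown cells labelled preadipocytes already carried a high level of it. Ucp1, the uncoupling protein that defines brown fat, was above the dim level on the brown adipocyte arrays only, at 382 ± 74.5. The ratio of 3' to 5' signal of beta-actin, a sign of RNA integrity and labelling, was 2.42 ± 0.0478 in brown adipocytes, 1.49 ± 0.0626 in brown preadipocytes, 2.25 ± 0.151 in white adipocytes and 1.40 ± 0.0554 in white preadipocytes. It moved with differentiation in both lines, whereas that of Gapdh lay between 0.775 and 0.861 in all groups. Its part in the changes below was not tested.

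In the brown line 2 of the 10 genes rose (Mmp11 and Timp4) and 4 fell (Mmp2, Mmp14, Timp1 and Timp2), where 27.2% of all tested genes rose and 31.6% fell. In the white line 4 rose (Mmp2, Mmp11, Mmp13 and Timp4) and 2 fell (Timp1 and Timp2), against 30.1% and 31.2% of all genes. Thus 6 of 10 passed in each line, where 58.7% of all genes passed in the brown and 61.3% in the white line. Mmp11 and Timp4 rose in both lines, as 16.8% of all genes did, and Timp1 and Timp2 fell in both, as 18% did. None of the 10 fell in the white and rose in the brown line, which 3.67% of all genes did. The arrays of adipocytes and preadipocytes did not overlap for 6 of the 10 in the brown and 7 in the white line, against 65.2% and 66.1% of all genes. Counts near such shares say little about the set as a whole, and the sections that follow are about the single genes. The median log2 change of the 10 was -0.59 in the brown and 0.23 in the white line, beside -0.03 and 0.02 over all genes. The brown change was lower than the white change for 5 genes and higher for 1 in the test of the difference itself, where 27.5% and 23.6% of all genes were, 51.1% together. Scaling the arrays to the hybridization controls moved the median change of all genes to -0.22 in the brown line and -0.23 in the white line. It also cut the share of calls that were rises to 31.9% in the brown line, against 46.2% in the main fit, and to 34.3% in the white line, against 49.1%. No change that passed for the 10 genes turned its direction under any scaling.

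**Figure D1:**
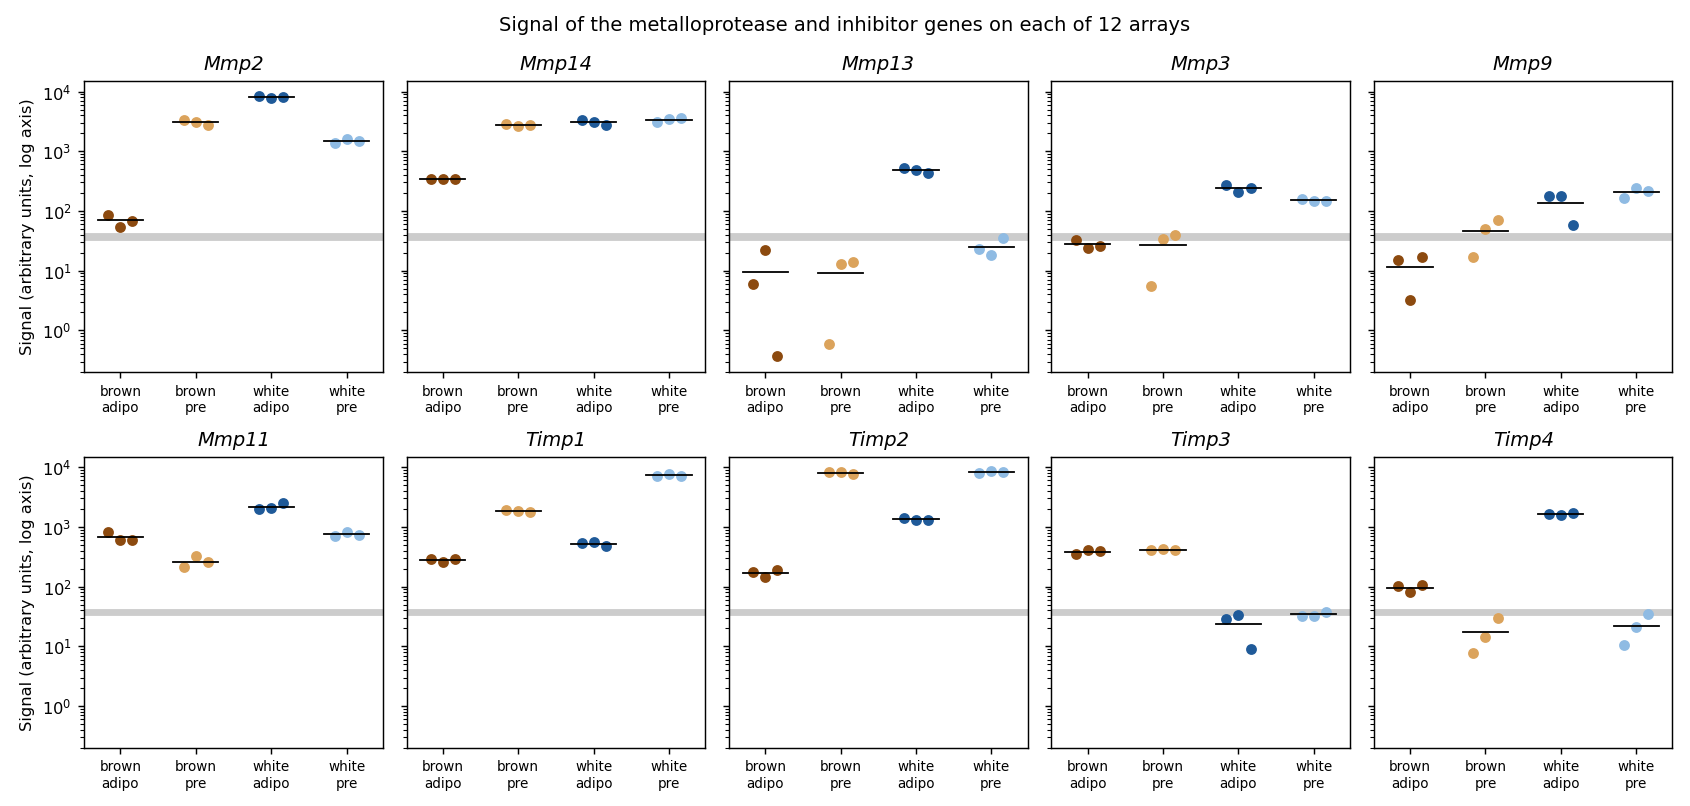
Signal of each of the 10 genes on all 12 arrays (log axis, arbitrary units), 1 point per array and a line at the group mean, with brown adipocytes, brown preadipocytes, white adipocytes and white preadipocytes from left to right. The grey band is the range of the 40th percentiles, 32.9 to 41.2. Mmp2 is lowest in brown and highest in white adipocytes, Timp1 and Timp2 are lower in adipocytes of both lines, and Timp3 lies above the band in the brown line only.

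Mmp2 moved in opposite directions in the lines. Its signal was 85.5, 54.1 and 68.5 in brown adipocytes, against 3379, 3117 and 2768 in brown preadipocytes. In the white line it was 8291, 7871 and 8150.4 in adipocytes, against 1367, 1631 and 1502 in preadipocytes. White adipocytes were thus highest and brown adipocytes lowest, and no array of one group overlapped another group. Mmp2 fell in the brown line, with a log2 change of -5.20 (SE 0.130, adjusted p = 7.86e-10), a 45.1-fold ratio of geometric mean signals. It rose in the white line by 2.42 (SE 0.130, adjusted p = 7.52e-08), or 5.42-fold. The brown minus the white change was -7.62 (SE 0.185, adjusted p = 2.54e-09). Of all tested genes, 4.9% rose in the white and fell in the brown line, and Mmp2 was the 1 member that did. Its other probe set gave the same picture, at 26.2 ± 4.86 in brown adipocytes, 2846 ± 283 in brown preadipocytes, 7195 ± 448 in white adipocytes and 1322 ± 79.5 in white preadipocytes. That probe set was dim on all 3 brown adipocyte arrays.

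Mmp14, which activates the Mmp2 precursor, fell in the brown line, and its white change did not pass. Its signal was 346, 349 and 338 in brown adipocytes, against 2891, 2695 and 2802 in brown preadipocytes, a log2 change of -2.96 (SE 0.0823, adjusted p = 1.38e-09) or 8.12-fold. White adipocytes had 3392, 3041 and 2787 and white preadipocytes 3118, 3422 and 3603, and these arrays overlapped. The white change of -0.14 (SE 0.0823, adjusted p = 0.173) did not pass, and the brown minus the white change was -2.82 (SE 0.116, adjusted p = 4.30e-08). The white call depended on the setting, with adjusted p from 0.000543 to 0.888 over the alternatives. It passed as a fall without white adipocyte replicate 1 (adjusted p = 0.0471), with equal medians (0.0289), with hybridization control scaling (0.000543) and on 1 of its 3 probe sets alone (0.0404). All 3 Mmp14 probe sets fell in the brown line, by log2 changes of -2.49, -3.26 and -2.96.

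Timp2 completes the Mmp14 and Mmp2 complex and fell in both lines, further in the brown. Its signal was 176, 144 and 193 in brown adipocytes, against 8172, 8256 and 7686 in brown preadipocytes. White adipocytes had 1434, 1328 and 1329, against 7954, 8504 and 8356 in white preadipocytes. On this probe set, which stood for the gene, the preadipocytes of the lines overlapped at the top. White adipocytes stood between, and brown adipocytes were lowest. On each of the other probe sets that passed the filter, the white preadipocyte arrays all lay above the brown ones. The log2 change was -5.44 (SE 0.0936, adjusted p = 1.72e-10) in the brown line, 47.3-fold in signal, and -2.59 (SE 0.0936, adjusted p = 4.19e-09) in the white line, 6.07-fold. The brown minus the white change was -2.85 (SE 0.132, adjusted p = 8.47e-08). Of 6 Timp2 probe sets 1 was dim on all 12 arrays. The other 5 each fell, with log2 changes of -5.61 to -3.13 in the brown line and -2.59 to -1.86 in the white line. On 1 of the 5 the difference between the lines, -1.19 (SE 0.520, adjusted p = 0.0900), did not pass.

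The preadipocyte and fibroblast markers Dlk1, Pdgfra, Pdgfrb, Thy1, Col1a1 and Col3a1 were read on the same arrays as Mmp2, Mmp14 and Timp2. All 6 fell in the brown line, where 31.6% of all tested genes fell. In the white line 3 fell (Dlk1, Pdgfrb and Thy1), 1 rose (Col3a1) and 2 did not pass (Pdgfra and Col1a1). Over all genes 31.2% fell and 30.1% rose in the white line. Their summed signal was 1967 to 2031 on brown adipocyte arrays, 36407 to 40753 on brown preadipocyte arrays, 37852 to 42671 on white adipocyte arrays and 34017 to 37387 on white preadipocyte arrays. Col3a1 made up a large part of that sum, at 28516 ± 1716 in white adipocytes and 12894 ± 650 in white preadipocytes. In the white line Dlk1 had 779 ± 67.7 in adipocytes, against 6452 ± 809 in preadipocytes. The part of these 6 markers in the protease results was not tested.

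**Figure D2:**
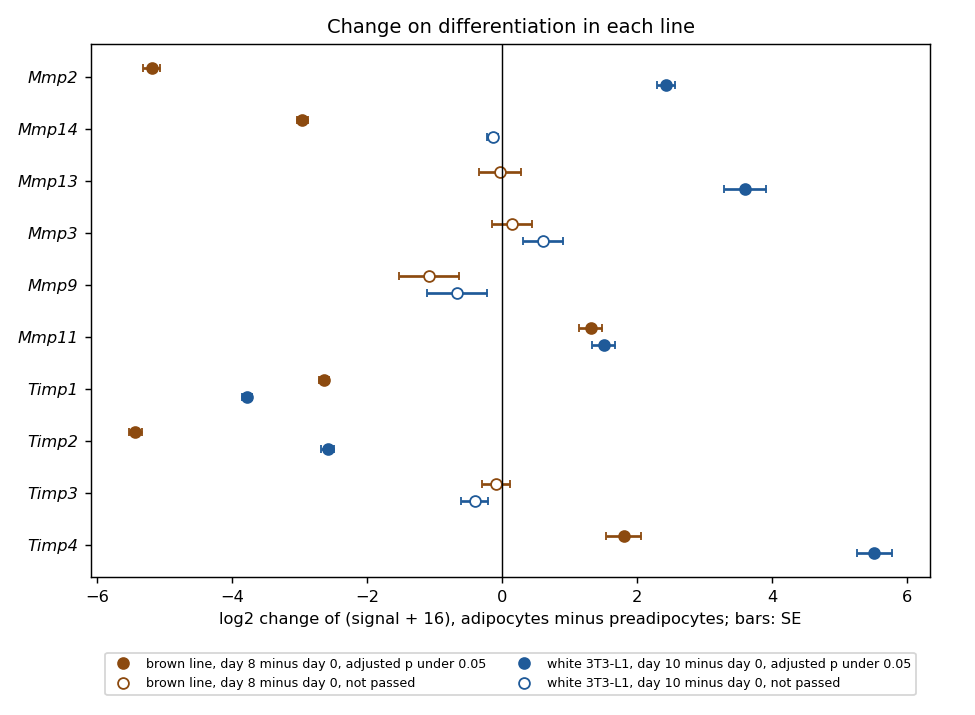
Log2 change of (signal + 16) on differentiation for each gene, brown line above white line, with bars of 1 SE from the limma fit. Filled points passed an adjusted p of 0.05 and open points did not. Mmp2 lies at -5.20 in the brown and 2.42 in the white line, Mmp13 moves in the white line alone, and Timp1 and Timp2 lie left of 0 in both.

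Mmp13, the collagenase, was found at a clear level in white adipocytes alone. Brown adipocytes had 6.08, 21.8 and 0.366 and brown preadipocytes 0.595, 13.1 and 14.2, dim on all 6 arrays, so no ratio is given for the brown line. White adipocytes had 516, 481 and 433, against 22.7, 18.1 and 34.7 in white preadipocytes, of which 2 were dim. The brown log2 change was -0.03 (SE 0.314, adjusted p = 0.943), the white one 3.60 (SE 0.314, adjusted p = 3.04e-06), and the brown minus the white change -3.63 (SE 0.444, adjusted p = 7.29e-05). Brown adipocytes were at least 12.1-fold lower than white adipocytes, a bound set by the dim level.

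Mmp3, which lies in the same gene cluster, was higher in the white line at both stages. Brown adipocytes had 32.2, 24.3 and 26.0, all dim, and brown preadipocytes 5.43, 34.3 and 39.9, of which 2 were dim. White adipocytes had 273, 206 and 238, against 159, 148 and 148 in white preadipocytes. All white arrays lay above all brown ones. Brown adipocytes were at least 6.07-fold lower than white adipocytes, with a log2 difference of -2.55 (SE 0.297, adjusted p = 3.20e-05), and brown preadipocytes lay below white preadipocytes at -2.10 (SE 0.297, adjusted p = 0.000169). The brown change was 0.15 (SE 0.297, adjusted p = 0.701). White adipocyte arrays all lay above the white preadipocyte arrays, where 66.1% of all genes had no overlap in one direction or the other, yet the log2 change of 0.60 (SE 0.297, adjusted p = 0.108) did not pass. The brown preadipocyte arrays, which share the estimate of spread, ranged widely. Without brown preadipocyte replicate 1 the white change passed (adjusted p = 0.00109), and so did the difference between the lines (0.00190). It also passed when the fit held the white arrays alone (0.00469), with a pseudocount of 64 (0.00745) and with dim signals raised to the 40th percentile (8.76e-05), in a range of 8.76e-05 to 0.370 over the alternatives.

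The promoters of Mmp13 and Mmp3 are shown because both carry a match to the motif of AP-1, the Fos and Jun dimer that is well known for driving MMP genes, and that of Timp4 because it rose in white adipocytes with Mmp13 and carries none. That of Timp2 stands for a gene that fell in both lines. Each is the 250 bases before the transcription start in RefSeq (build GRCm38.p6), 5′ to 3′ on the strand of the gene, with the motifs found in capitals.
Mmp13 (chr9:7272264-7272513, plus strand): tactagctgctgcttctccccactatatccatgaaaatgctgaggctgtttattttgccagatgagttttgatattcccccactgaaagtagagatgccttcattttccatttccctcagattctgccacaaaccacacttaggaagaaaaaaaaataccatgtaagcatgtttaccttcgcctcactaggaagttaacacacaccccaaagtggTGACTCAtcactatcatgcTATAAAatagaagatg
Mmp3 (chr9:7445572-7445821, plus strand): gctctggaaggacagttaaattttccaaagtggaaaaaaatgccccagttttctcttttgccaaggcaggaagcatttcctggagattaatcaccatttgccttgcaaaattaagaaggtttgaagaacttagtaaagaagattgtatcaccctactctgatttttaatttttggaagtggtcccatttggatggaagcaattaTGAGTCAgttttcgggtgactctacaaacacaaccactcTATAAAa
Timp4 (chr6:115252206-115252455, minus strand): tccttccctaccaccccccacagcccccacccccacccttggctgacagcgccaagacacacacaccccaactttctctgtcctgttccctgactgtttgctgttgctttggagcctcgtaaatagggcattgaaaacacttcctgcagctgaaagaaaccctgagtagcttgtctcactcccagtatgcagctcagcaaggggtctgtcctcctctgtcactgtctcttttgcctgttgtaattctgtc
Timp2 (chr11:118355412-118355661, minus strand): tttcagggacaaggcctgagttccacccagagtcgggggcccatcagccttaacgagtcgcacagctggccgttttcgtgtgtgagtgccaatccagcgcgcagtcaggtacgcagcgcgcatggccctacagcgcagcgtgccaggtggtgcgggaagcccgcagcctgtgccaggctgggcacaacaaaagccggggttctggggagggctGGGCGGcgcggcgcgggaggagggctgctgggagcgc
Both strands were searched over the 300 bases that end 50 bases after the start. The AP-1 motif was spelled TGANTCA. The TATA box was spelled TATAAA. The GC box was spelled GGGCGG. Matches of these motifs do not overlap each other in the promoters of these genes. RefSeq promoters were found for 8 of the 10 genes, all but Mmp2 and Mmp9. Mmp13 has an AP-1 match, TGACTCA, that begins 35 bases before the start, and a TATA box 16 bases before it. Mmp3 has TGAGTCA at 46 bases and a TATA box at 7 bases before the start. None of the other 6 has either motif. Mmp11, Mmp14, Timp1, Timp2 and Timp3 have at least 1 GC box, and Timp4 has none of the 3. Among 32851 promoters of the same length, 7.81% held the AP-1 motif, 13.62% the TATA box and 35.66% the GC box. A match of letters is no evidence that a factor binds there in these cells.

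In RefSeq, Mmp13 and Mmp3 lie in a run of 10 MMP genes on chromosome 9, from Mmp13 through Mmp12, Mmp1b, Mmp3, Mmp1a, Mmp10, Mmp8, Mmp27 and Mmp20 to Mmp7. Apart from Mmp27, which no single-symbol probe set carried, all were on the array. Mmp12, Mmp1b, Mmp1a, Mmp8 and Mmp7 were dim on all 12 arrays. Mmp10 was above the dim level on 2 arrays and Mmp20 on 1, with highest signals of 55.3 and 58.3. Mmp13 and Mmp3 were therefore the cluster genes with a level that could be compared.

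Mmp9, the second gelatinase, was higher in the white line at both stages on 1 of its 2 probe sets. Its change on differentiation was not settled. Brown adipocytes had 15.2, 3.17 and 16.6, all dim, and brown preadipocytes 16.6, 50.5 and 69.6. White adipocytes had 178, 178 and 57.2, and white preadipocytes 164, 244 and 218. Groups next to each other in this order overlapped, and white adipocyte replicate 3 lay far below the other two. The brown log2 change was -1.08 (SE 0.444, adjusted p = 0.0590) and the white change -0.66 (SE 0.444, adjusted p = 0.225). The brown fall passed without brown preadipocyte replicate 1 (adjusted p = 0.0157) or white adipocyte replicate 3 (0.0236), with a pseudocount of 1 (0.0409), with hybridization control scaling (0.0328), with a 60th percentile filter (0.0402) and with an intensity trend (0.0266), in a range of 0.0157 to 0.448 over the alternatives. Its probe sets disagreed on the adipocytes. The other one, which failed the filter on dim signals, had 5.91, 5.70 and 4.69 in brown adipocytes and 17.9, 26.6 and 24.8 in brown preadipocytes, all dim. It had 5.27, 7.52 and 6.33 in white adipocytes, all dim, against 29.7, 96.7 and 73.0 in white preadipocytes. This probe set thus shows no difference between brown and white adipocytes that could be measured. Its white preadipocyte arrays all lay above its dim brown preadipocyte arrays. The mean of the 2 probe sets fell in both lines (adjusted p = 0.0157 in the brown and 0.00406 in the white line).

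Mmp9 is also a product of macrophages, and their markers were looked at on the same arrays. Ptprc, Itgam and Tyrobp had group means of 20.5 or less, and the summed signal of the 9 macrophage and leukocyte markers on the array was 507 to 526 in brown adipocytes, 555 to 652 in brown preadipocytes, 1026 to 1130.05 in white adipocytes and 1575 to 1696 in white preadipocytes. Lysozyme (Lyz2) had 15.0 ± 10.7 and 46.5 ± 4.48 in brown adipocytes and preadipocytes, and 492 ± 41.6 and 870.2 ± 95.8 in white adipocytes and preadipocytes. It thus made up a large part of the summed white signal. Of the 6 tested markers, 2 (Lyz2 and Cd14) were lower and 4 did not pass in brown against white adipocytes, where 29.5% of all genes were lower. In brown against white preadipocytes the same 2 were lower, Cd68 was higher at 0.87 (SE 0.272, adjusted p = 0.0197), and Csf1r, Adgre1 and Laptm5 did not pass. Over all genes 23.8% were lower and 31.3% higher in brown preadipocytes. The part of these markers in the Mmp9 result was not tested. All 5 endothelial markers on the array failed the filter on dim genes.

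Mmp11 rose in both lines and was higher in the white one. Brown adipocytes had 819, 604 and 597, against 209, 324 and 254 in brown preadipocytes, a log2 change of 1.31 (SE 0.169, adjusted p = 7.24e-05) or 2.58-fold. White adipocytes had 1985, 2109.9 and 2483, against 718, 838 and 729 in white preadipocytes, a change of 1.50 (SE 0.169, adjusted p = 2.16e-05) or 2.87-fold. Brown adipocytes reached the level of white preadipocytes, with which their arrays overlapped. The brown minus the white change was -0.19 (SE 0.239, adjusted p = 0.547), an estimate with a 95% interval of -0.73 to 0.34 (moderated t, unadjusted). Any gap inside that interval is within what these arrays allow.

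Timp1, which binds most secreted MMPs, fell in both lines, further in the white. Brown adipocytes had 293, 257 and 295, against 1890.4, 1833 and 1802 in brown preadipocytes. White adipocytes had 535, 549.9 and 478, against 7160.2, 7603 and 7251 in white preadipocytes. All 4 groups were apart, with white preadipocytes highest and brown adipocytes lowest. The log2 change was -2.64 (SE 0.0745, adjusted p = 1.48e-09) in the brown and -3.78 (SE 0.0745, adjusted p = 8.56e-11) in the white line, or 6.54-fold and 14.1-fold in signal. The brown minus the white change was 1.14 (SE 0.105, adjusted p = 1.01e-05). Adipocytes of the lines ended closer together than preadipocytes had been, with a brown minus white difference of -0.85 (SE 0.0745, adjusted p = 3.88e-06) after differentiation, against -1.98 (SE 0.0745, adjusted p = 1.40e-08) before it.

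Timp3, the inhibitor held in the matrix, marked the brown line at both stages and did not pass on differentiation in either. Brown adipocytes had 354, 414 and 392 and brown preadipocytes 404, 424 and 415. White adipocytes had 28.5, 32.9 and 8.89, all dim, and white preadipocytes 32.3, 32.8 and 38.1, of which 2 were dim. Brown adipocytes were at least 10.3-fold higher than white adipocytes, with a log2 difference of 3.41 (SE 0.207, adjusted p = 2.49e-07), and brown preadipocytes were higher than white preadipocytes by 3.10 (SE 0.207, adjusted p = 7.95e-07). All 4 Timp3 probe sets were higher in the brown line in both comparisons (adjusted p = 3.20e-07 to 0.0453). The change on differentiation was -0.10 (SE 0.207, adjusted p = 0.715) in the brown line and -0.41 (SE 0.207, adjusted p = 0.113) in the white line. The white change passed as a fall without white adipocyte replicate 2 (adjusted p = 0.0294), with quantile normalization (0.0352), with hybridization control scaling (0.0201) and over the mean of its probe sets (0.0132), within 0.0132 to 0.657, between mostly dim signals.

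Timp4 was the inhibitor that rose. Brown adipocytes had 102, 82.2 and 105, against 7.78, 14.3 and 30.3 in brown preadipocytes, all dim. White adipocytes had 1662, 1586 and 1738, against 10.4, 20.8 and 34.7 in white preadipocytes, of which 2 were dim. White adipocytes stood far above brown adipocytes, and on this probe set the preadipocytes of the lines overlapped. The log2 change was 1.80 (SE 0.262, adjusted p = 0.000173) in the brown line, where adipocytes were at least 2.44-fold higher, and 5.52 (SE 0.262, adjusted p = 2.94e-08) in the white line. The brown minus the white change was -3.72 (SE 0.371, adjusted p = 1.71e-05). On the other probe set the brown change, 0.56 (SE 0.279, adjusted p = 0.120), did not pass, and the white rise was 3.24 (SE 0.279, adjusted p = 3.28e-06). On that probe set the preadipocytes did not overlap, at 17.0 ± 5.46 in the brown and 50.9 ± 9.29 in the white line.

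**Figure D3:**
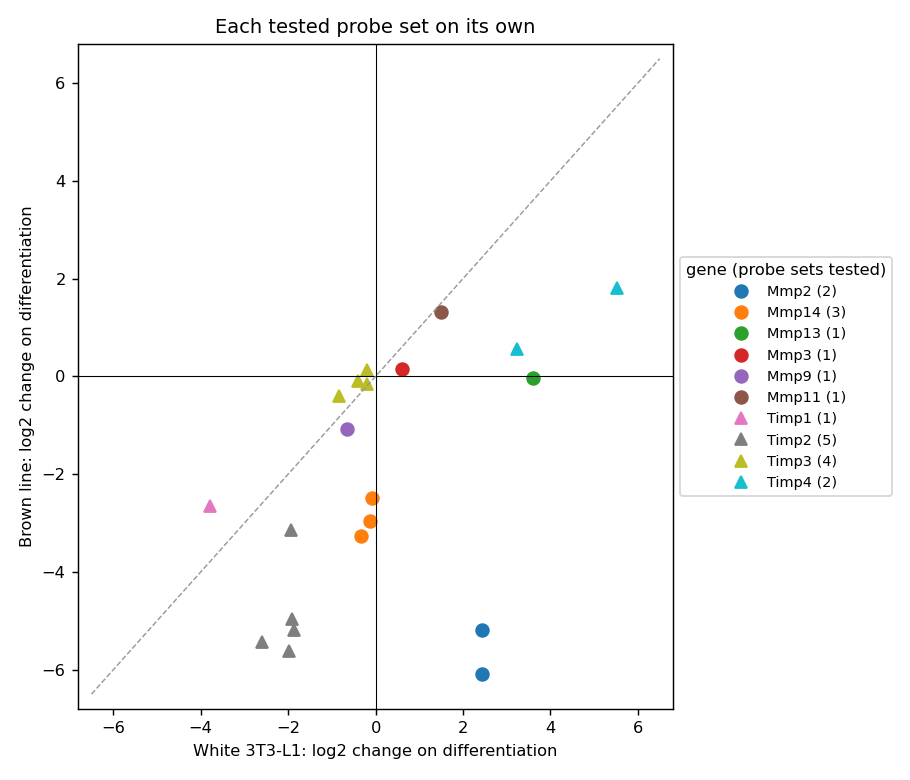
Log2 change on differentiation of each of the 21 probe sets that passed the filter, white line on the x axis and brown line on the y axis, circles for MMPs and triangles for TIMPs. The dashed line marks equal changes. Both Mmp2 probe sets lie at the lower right, the 3 of Mmp14 lie below 0 on the y axis and near 0 on the x axis, and the 5 of Timp2 lie below the dashed line.

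In RefSeq, Timp1, Timp3 and Timp4 each lie inside a gene for a synapsin, a coat protein of synaptic vesicles, namely Syn1, Syn3 and Syn2. These hosts and Pparg were looked at after the values of the TIMPs were known. Syn2 rose with Timp4, at 1308 ± 127 in brown adipocytes, against 34.6 ± 7.12 in brown preadipocytes, and at 702 ± 67.4 in white adipocytes, against 18.6 ± 9.37 in white preadipocytes. Its log2 change was 4.72 (SE 0.180, adjusted p = 9.48e-09) in the brown and 4.41 (SE 0.180, adjusted p = 9.73e-09) in the white line, which differed by 0.31 (SE 0.254, adjusted p = 0.345). Unlike Timp4, which was lower in brown than in white adipocytes, Syn2 was higher by 0.88 (SE 0.180, adjusted p = 0.00158). The next gene after Timp4 is Pparg, the nuclear receptor that fat cells need to form. It rose by 1.49 (SE 0.0645, adjusted p = 2.34e-08) in the brown and 3.69 (SE 0.0645, adjusted p = 4.66e-11) in the white line. Syn1 and Syn3, the hosts of Timp1 and Timp3, had group means of 17.0 to 59.4 and passed in no comparison.

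Set line against line, 9 of the 10 genes were lower and 1, Timp3, was higher in brown than in white adipocytes, where 29.5% and 30.1% of all genes were. All 10 thus passed, as 59.6% of all genes did, and for all 10 the arrays did not overlap, as for 65.6% of all genes. The share of calls that were higher in brown adipocytes was 50.5%, and 60.6% with hybridization control scaling. The widest gap between measured signals was that of Mmp2, with brown adipocytes 119-fold below white ones and a log2 difference of -6.59 (SE 0.130, adjusted p = 1.94e-10). Timp4 lay at -3.90 (SE 0.262, adjusted p = 5.15e-07), or 17.3-fold in signal. Mmp14 lay at -3.10 (SE 0.0823, adjusted p = 9.25e-10) and Timp2 at -2.89 (SE 0.0936, adjusted p = 3.12e-09), 8.90-fold and 8.02-fold. Mmp11 was at -1.69 (SE 0.169, adjusted p = 1.05e-05). Mmp13, Mmp3 and Mmp9 were dim on all brown adipocyte arrays, and Timp3 on all white adipocyte arrays. These genes thus have no rank among the gaps. The bounds for Mmp13 (adjusted p = 8.60e-07), Mmp3 and Timp3 are given above. Mmp9 was at least 3.11-fold lower (adjusted p = 0.000901), though its other probe set was dim in adipocytes of both lines. These values share the white adipocyte arrays with the white differentiation and the brown adipocyte arrays with the brown one.

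Before induction, 2 of the 10 were higher and 5 lower in brown than in white preadipocytes, against 31.3% and 23.8% of all genes. In all 7 of 10 passed, as 55.1% of genes did, and the arrays of 8 did not overlap, as for 62%. Of all calls 56.8% were higher in brown preadipocytes, but 35.5% with equal medians, which moved the median difference of all genes to -0.18 from 0.07. The genes higher in brown were Timp3 and Mmp2, Mmp2 by 1.03 (SE 0.130, adjusted p = 7.58e-05), so Mmp2 stood higher in the brown line before differentiation and lower after it. Those lower in brown were Timp1, Mmp3, Mmp9, Mmp11 and Mmp14, with Mmp9 at -1.96 (SE 0.444, adjusted p = 0.00358) and Mmp11 at -1.50 (SE 0.169, adjusted p = 3.39e-05). The Mmp14 difference of -0.27 (SE 0.0823, adjusted p = 0.0176) did not pass without brown preadipocyte replicate 2 (adjusted p = 0.0587) or white preadipocyte replicate 3 (0.0668), with hybridization control scaling (0.0581) or on 1 of its probe sets alone (0.241), in a range of 0.000409 to 0.241. Timp2 differed by -0.04 (SE 0.0936, adjusted p = 0.743), Timp4 by -0.19 (SE 0.262, adjusted p = 0.585) and Mmp13 by -0.73 (SE 0.314, adjusted p = 0.0723). On the other tested Timp2 probe sets the difference was -0.58 to -0.22, and 1 of them, at -0.58 (SE 0.179, adjusted p = 0.0210), passed. The other Timp4 probe set also passed, at -1.02 (SE 0.279, adjusted p = 0.0115). The Mmp13 difference, between mostly dim signals, passed without brown adipocyte replicate 2 (adjusted p = 0.0304) or 3 (0.0482), with quantile normalization (0.0394), with equal medians (0.0329) and with a 60th percentile filter (0.04999), within 0.0304 to 0.253.

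Other proteases and their partners were counted in lists around the 10 genes. Of all tested genes, 27.2% rose and 31.6% fell in the brown line, and 30.1% rose and 31.2% fell in the white line. These shares stand beside the counts of all the lists that follow, and counts near them say little about a list as a whole. Of 17 other MMPs 12 were on the array, and 4 passed the filter. Of these 3 fell and 1 did not pass in the brown line, and 1 rose, 1 fell and 2 did not pass in the white line. Mmp23, a membrane protease, fell in both lines, and its log2 changes were -2.31 (SE 0.227, adjusted p = 9.74e-06) in brown and -1.39 (SE 0.227, adjusted p = 0.000345) in white cells. Mmp24, another membrane-anchored protease, lay at -0.62 (SE 0.201, adjusted p = 0.0227) in brown and 0.02 (SE 0.201, adjusted p = 0.953) in white cells. Mmp19 went the way of Mmp2, with -1.50 (SE 0.156, adjusted p = 1.46e-05) in the brown and 0.55 (SE 0.156, adjusted p = 0.0110) in the white line.

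Plasminogen activation makes plasmin, which can activate MMP precursors. Of 7 listed genes 4 were tested, and 3 fell in the brown line, while all 4 fell in the white line. Serpinb2, an inhibitor of urokinase, did not pass in the brown line, at 0.18 (SE 0.267, adjusted p = 0.601). The tissue activator Plat had 89.4 ± 23.6 in brown adipocytes, against 1329.8 ± 48.4 in brown preadipocytes, and 338 ± 70.4 in white adipocytes, against 2259 ± 75.4 in white preadipocytes. Its log2 change was -3.70 (SE 0.173, adjusted p = 4.02e-08) in the brown line. In the white line it was -2.70 (SE 0.173, adjusted p = 2.79e-07). The urokinase Plau changed by -2.78 and -1.54 and its receptor Plaur by -0.77 and -2.67 in the brown and white lines. The median of the 4 was -1.78 in the brown and -2.25 in the white line, beside -0.03 and 0.02 over all genes.

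Of 16 tested ADAM and ADAMTS proteases, cousins of the MMPs that shed membrane proteins or cut proteoglycans, 10 fell, 1 rose and 5 did not pass in the brown line. In the white line 7 rose, 7 fell and 2 did not pass. Over all genes 31.6% fell and 27.2% rose in the brown line, and 30.1% rose and 31.2% fell in the white line. The largest brown changes included those of the aggrecanases Adamts1 and Adamts5. Adamts1 had 409 ± 50.6 in brown adipocytes, against 8831 ± 415 in brown preadipocytes, a change of -4.39 (SE 0.121, adjusted p = 1.32e-09). Its white change was -0.53 (SE 0.121, adjusted p = 0.00307). Adamts5 changed by -3.24 (SE 0.105, adjusted p = 3.35e-09) in the brown and -0.76 (SE 0.105, adjusted p = 9.98e-05) in the white line. Adamts12 fell to 619 ± 59.3 in brown adipocytes, against 1333 ± 87.7 in brown preadipocytes, a change of -1.09 (SE 0.0920, adjusted p = 2.97e-06). It rose to 2917 ± 163 in white adipocytes, against 241 ± 21.0 in white preadipocytes, a change of 3.51 (SE 0.0920, adjusted p = 4.79e-10). In the list 4 genes rose in the white and fell in the brown line like Mmp2, namely Adam17, Adamts9, Adamts12 and Adamts15. Over all tested genes 4.9% moved that way.

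Of 8 tested genes for the activation, docking and clearance of MMPs, 2 rose, 4 fell and 2 did not pass in the brown line, and 1 rose, 2 fell and 5 did not pass in the white line. Reck, a membrane-anchored inhibitor of several MMPs, had 45.3 ± 13.8 in brown adipocytes, against 917 ± 53.6 in brown preadipocytes, and 521 ± 16.7 in white adipocytes, against 543 ± 42.5 in white preadipocytes. It changed like Mmp14, by -3.95 (SE 0.146, adjusted p = 7.99e-09) in the brown and -0.06 (SE 0.146, adjusted p = 0.766) in the white line, a difference of -3.90 (SE 0.207, adjusted p = 2.13e-07). Basigin (Bsg), a membrane glycoprotein known to induce MMPs in neighbouring cells, rose by 1.99 and 2.45, and Cd44, a hyaluronan receptor that can hold Mmp9 at the surface, fell with changes of -2.15 and -2.60 in the brown and white lines.

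Of 8 tested cathepsins and cystatins, proteases of the lysosome and their inhibitors, 4 rose, 3 fell and 1 did not pass in the brown line, and 6 rose and 2 fell in the white line. The collagen-cutting cathepsin Ctsk changed by -2.83 (SE 0.0985, adjusted p = 5.61e-09) in the brown and 0.61 (SE 0.0985, adjusted p = 0.000303) in the white line, and Ctsh by -1.82 and 1.15. The inhibitor cystatin C (Cst3) rose by 0.82 and 0.87. Of 12 tested AP-1 and ETS factors 4 rose, 6 fell and 2 did not pass in the brown line, and 2 rose, 7 fell and 3 did not pass in the white line. Fos fell in the brown line, at -0.75 (SE 0.105, adjusted p = 0.000131). It rose in the white line, at 1.74 (SE 0.105, adjusted p = 1.78e-07). No other tested AP-1 subunit passed in that pattern, and those named here were chosen after their values were seen. Fosb had the same signs as Fos but passed in neither line. Its changes were -0.27 (SE 0.359, adjusted p = 0.547) in the brown and 0.65 (SE 0.359, adjusted p = 0.144) in the white line. Jun rose in the brown line, at 1.52 (SE 0.0707, adjusted p = 3.90e-08), and fell in the white line, at -1.41 (SE 0.0707, adjusted p = 4.49e-08). Junb changed by -0.71 and -1.50 and Fosl1 by -1.16 and -0.54 in the brown and white lines, all of them falls that passed. Ets1 fell with changes of -1.76 and -1.50, and Etv4 changed by -0.27 (SE 0.359, adjusted p = 0.552) in the brown and -2.64 (SE 0.359, adjusted p = 8.86e-05) in the white line.

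**Figure D4:**
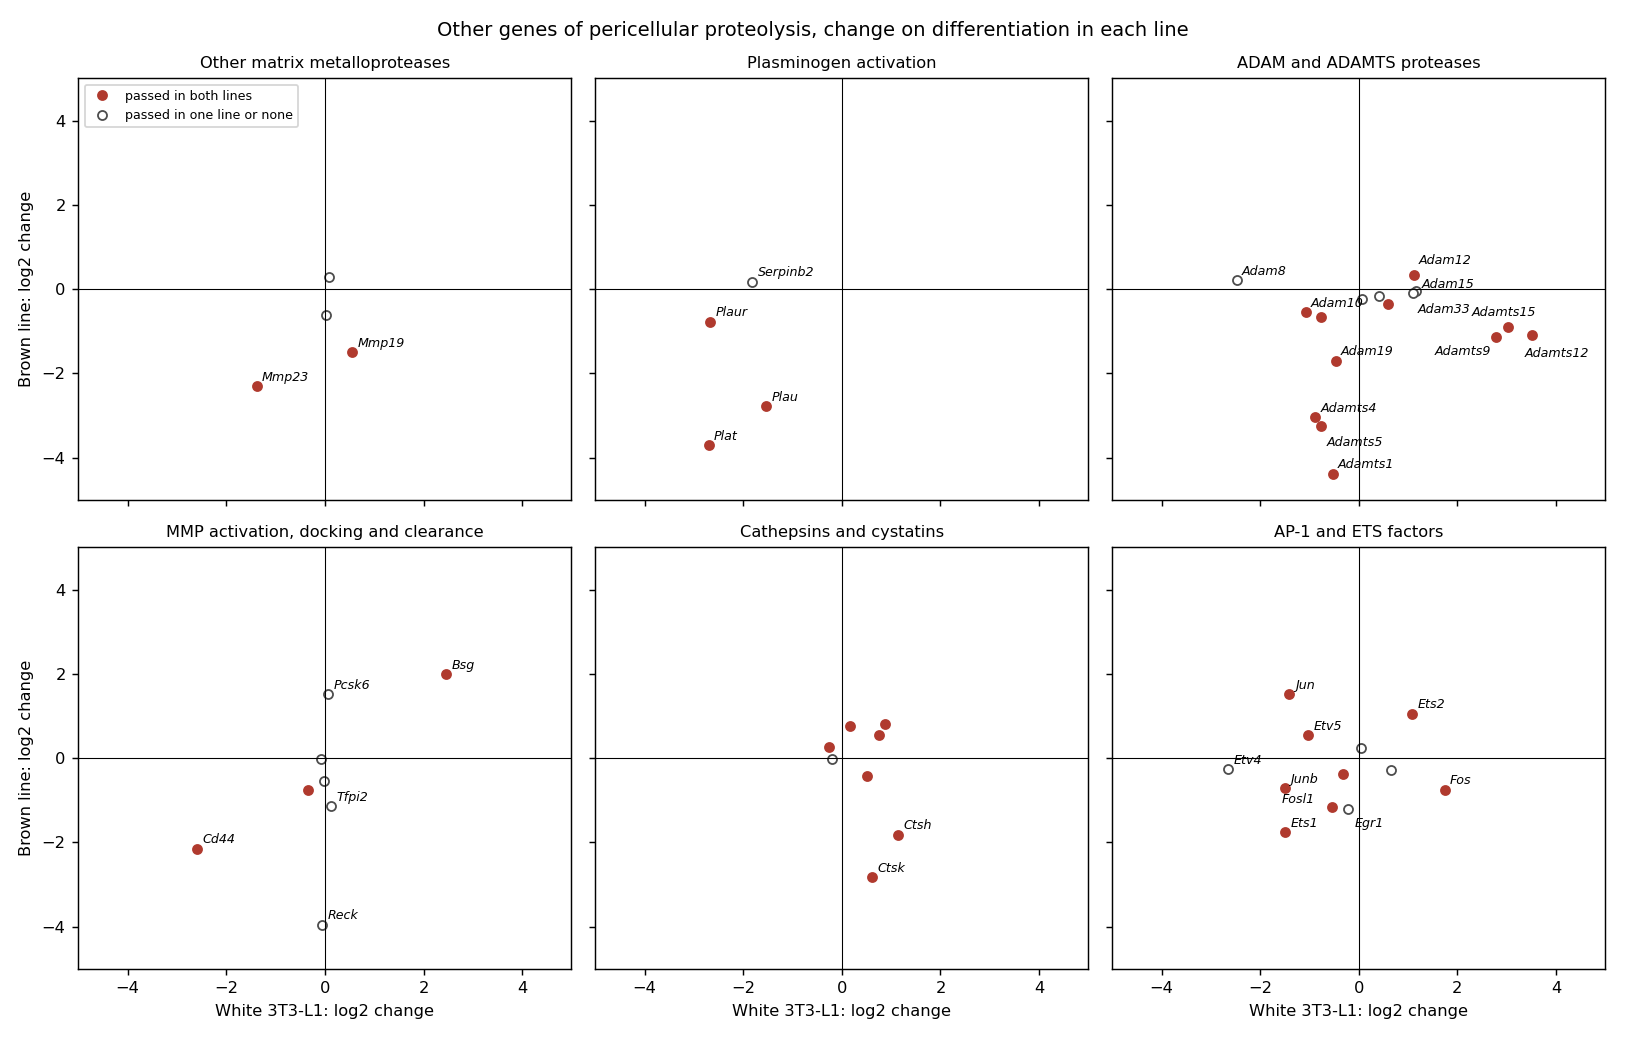
Log2 change on differentiation of the genes of 6 lists around the MMPs and TIMPs, white line on the x axis and brown line on the y axis, 1 point per tested gene. Filled points passed an adjusted p of 0.05 in both lines, and genes with a change beyond 1 in either line are named. Plat and Plau lie at the lower left, Reck lies near 0 in the white line and at -3.95 in the brown line, and Adamts9, Adamts12 and Adamts15 lie at the lower right.

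The genes whose log2 signal over the 12 arrays was most like that of each member are given as a description, since the 4 groups set most of any such correlation and the best of 13751 genes were taken. For Mmp14 they were thrombospondin 2 (Thbs2, Pearson r = 0.999) and collagen Col1a2 (0.998). For Mmp2 they were Adam23 (0.99) and P4ha2 (0.99), a subunit of collagen prolyl hydroxylase. Timp1 lay nearest to Ecm1, an extracellular matrix protein (0.998), and Psrc1 (0.997), Timp2 to Apbb2 (0.997) and Pwwp3b (0.995), Timp3 to Sirpa (0.99) and the transcription factor Zic1 (0.99), and Timp4 to the laminin chain Lamb1 (0.99) and Pgrmc2 (0.99). Mmp13 was nearest to Jkamp (0.98) and the prion protein gene Prnp (0.98), Mmp11 to the glycogenin gene Gyg (0.98) and Pcgf5 (0.98), Mmp3 to Vps33a (0.98) and Trim8 (0.98), and Mmp9 to Cyth3 (0.95) and Mapk8 (0.95). Among the members themselves Mmp2 and Mmp14 had an r of 0.92, Mmp13 and Timp4 0.90, Timp1 and Timp2 0.88, and Mmp3 and Timp3 -0.95.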

How the data were processed

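Per the submitters' processing notes, the array scans were processed with Affymetrix Expression Console. Its version and its summary method were not given in the sources used here. The deposited values are signal intensities on a linear scale for each probe set, and on each array the mean without the top and bottom 2% of values was 500.003 to 500.004. Of 45101 probe sets 34945 had 1 gene symbol in the platform annotation, 932 had several, 9160 were not listed there and 64 were controls. Probe sets without a single symbol were not used, and the gene identifiers of 34741 probe sets matched RefSeq. The probe set of highest mean over the 12 arrays stood for its gene. Genes above the 40th percentile of the array on at least 3 arrays were tested, 13752 in all, and 4441 were too dim. Log2(signal + 16) went into limma 3.58.1 (R 4.3.3), which estimated 1 mean for each of 4 groups over all 12 arrays, 8 residual and 1.81 prior degrees of freedom. The 5 contrasts were adjusted by Benjamini-Hochberg over all genes tested, and called at an adjusted p under 0.05. "At least" ratios set a group dim on all its arrays at the 40th percentile of each array. The alternatives were other pseudocounts, scalings, filters, probe set rules, moderation, thresholds, fewer arrays and the replicate number as a block. In each context list the 3 genes with the largest changes were named, and in some lists further genes were named beside them. For each member the 2 genes of highest correlation were named. The members and lists were chosen with earlier results of these data known. The number of arrays limits the precision. Figures were drawn with matplotlib 3.10.9.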

Additional observations from a re-analysis of the deposited data

Results flagged for a closer look

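For 6 of the 10 genes the change on differentiation differed between the lines in the limma test of the difference itself, where 51.1% of all tested genes did. The brown change minus the white change was -7.62 for Mmp2 (SE 0.185, adjusted p = 2.54e-09), -3.63 for Mmp13 (SE 0.444, adjusted p = 7.29e-05), -2.82 for Mmp14 (SE 0.116, adjusted p = 4.30e-08) and -2.85 for Timp2 (SE 0.132, adjusted p = 8.47e-08), all on the log2 scale. It was -3.72 for Timp4 (SE 0.371, adjusted p = 1.71e-05), which rose in both lines, and 1.14 for Timp1 (SE 0.105, adjusted p = 1.01e-05), which fell in both. On the other Timp4 probe set the brown rise did not pass (adjusted p = 0.120). Mmp2 changed in opposite directions. The groups hold 3 arrays each, too few for a test of single arrays that stand apart.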

How the results depend on the processing

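Of 50 comparisons, 5 for each of the 10 genes, 37 kept their side of the threshold under every alternative run. Of 1455 alternative values 9 lost and 31 gained a call, and 0 values that had passed turned direction. Some changes that did not pass did turn sign, such as the brown change of Mmp3, which ran from -0.29 to 0.43. In the white line 4 members were lower, against 2 in the main fit, with hybridization control scaling and over the mean of all probe sets. With a threshold of at least 2-fold, which by construction calls fewer genes, 1345 genes were higher and 1751 lower in the brown line, 1833 and 1717 in the white line, 1365 and 2014 for the difference between the lines, 1642 and 1546 in brown against white adipocytes, and 1598 and 874 in brown against white preadipocytes. The main counts were 3736 and 4342, 4141 and 4286, 3248 and 3778, 4140 and 4061, and 4307 and 3274 in the same order. With equal medians 2729 genes were higher and 4952 lower in brown preadipocytes, and the cause was not tested. Other gained calls were Timp2 lower in brown preadipocytes with equal medians (adjusted p = 0.0103) and on 1 probe set (0.0210). Timp4 was also called lower there over the mean of its probe sets (0.0372) and on 1 probe set alone (0.0115). Leaving out 1 array gave 4 to 5 members lower in the brown line, 4 to 5 higher and 2 to 3 lower in the white line, 5 to 6 lower in the difference between the lines, and 4 to 6 lower in brown preadipocytes. The replicate number as a block gave 3673 genes higher and 4304 lower in the brown line and 4099 and 4246 in the white line, and changed no call of the 10 genes. Same-numbered arrays did not deviate together, with correlations of -0.0292 to 0.0668 over 18 pairs, 0 of them over 0.1. The labels do not say whether same-numbered arrays were cultured or handled together, and these correlations cannot tell. Signal over background limits Mmp13, Mmp3, Mmp9, Timp3 and Timp4, which were dim on 4 to 8 of the 12 arrays.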

Other observations

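Of 4 smooth muscle markers 3 were tested. In the brown line 1 rose, 1 fell and 1 did not pass, and in the white line 2 rose and 1 fell. Over all genes 27.2% rose and 31.6% fell in the brown line, and 30.1% rose and 31.2% fell in the white line. Desmin (Des) rose in both lines, with log2 changes by limma of 1.03 (SE 0.280, adjusted p = 0.00919) in the brown line and 2.27 (SE 0.280, adjusted p = 4.25e-05) in the white one. The myosin gene Myh11 did not pass in the brown line, at 0.63 (SE 0.411, adjusted p = 0.219), and rose in the white line, at 2.58 (SE 0.411, adjusted p = 0.000284). The smooth muscle actin Acta2 fell in both. It had 578 ± 125 in brown adipocytes, against 6786 ± 449 in brown preadipocytes, a log2 change of -3.54 (SE 0.145, adjusted p = 1.66e-08) by limma. White adipocytes had 1281 ± 168, against 12456 ± 283 in white preadipocytes, a change of -3.27 (SE 0.145, adjusted p = 1.79e-08). The part of these markers in the results on the inhibitors was not tested. Of the adipocyte markers, 6 of 7 rose in the brown line and 7 of 7 in the white line, where 27.2% and 30.1% of all genes rose. All 7 were higher in brown than in white preadipocytes by the same fit, as 31.3% of all genes were.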
